A study of Mus musculus with 12 samples.

Results

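The 6 control libraries of this series gave the baseline expression of mouse auditory cortex kept in acute slices, and the loci described here are those whose FPKM in these libraries averaged 1 or more, 12019 of the 20989 loci listed in each. FPKM, fragments per kilobase of transcript and per unit of sequencing depth, takes length into account, so levels of different genes can be set side by side on it. Auditory cortex was dissected from coronal brain slices, 350 µm thick, of 6 mice of strain C57bl6/J at 4 weeks of age, 1 mouse to a library. The slices recovered for 15 min in a choline chloride dissection buffer, were divided at the midline, rested for 45 min in oxygenated artificial cerebrospinal fluid (aCSF), and one hemisphere of each then stayed for 1 h in fresh aCSF. The Methods of the study add a further rest in aCSF after this, which the sample labels do not mention. The complementary hemispheres, 6 further libraries of the 12 in the series, received a pharmacological cocktail of bicuculline, norepinephrine, carbamoylcholine, dopamine, ascorbic acid and serotonin in aCSF, and were not tested against the control libraries here. The labels name no genetic modification. Every control value comes from tissue that had been cut and incubated, and cortex that was never sliced was not analysed here.

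Cutting a slice severs axons and vessels, and tissue kept in aCSF is known to respond with genes of several programs. Immediate-early genes are transcribed within minutes of calcium entry or growth factor signalling, without new protein synthesis, and encode transcription factors such as Fos and Egr1 or synaptic proteins such as Arc. Chaperone genes of the Hsp families answer to unfolded protein, and cytokine and chemokine genes in microglia, the resident macrophages of brain, answer to damage. The auditory cortex itself is a layered sheet of glutamatergic projection neurons and GABAergic interneurons among astrocytes, oligodendrocytes, microglia and vessels, and it carries receptors for norepinephrine, acetylcholine, dopamine and serotonin.

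The reads behind the FPKM values summed to between 10601067 and 19768881 per library (median 14924263), and summed FPKM lay between 290155 and 321723. Over the 12019 loci the libraries had pairwise correlations of log2(FPKM + 1) between 0.983 and 0.995, which are correlations across genes and not over replicates. Their reads differed by between 7.80 and 42.6 in chi-square per locus, more than the same library read again would give. Reads were recovered from the FPKM intervals, which fails at some loci, so these sums and distances are approximate. The library of mouse 1, the deepest, stood apart from the others. It held the lowest value of 50.1% of the loci, against 7.80% to 15.4% for each of the other libraries, and its values deviated from the mean with the GC content of the transcript (Spearman correlation across genes 0.555, against -0.340 to -0.011 in the others). Values are therefore given with and without this library where it decides them, and its part in any result beyond that was not tested.

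Expression was spread over many loci. The median locus stood at 10.2 FPKM, with quartiles of 4.27 and 23.4. There were 5925 loci between 1 and 10 FPKM, 5531 between 10 and 100, 558 between 100 and 1000, and 5 above 1000. A further 5093 loci had a mean above 0 and below 1 FPKM, and 3877 were listed at 0 in every library. The 100 highest loci held 16.9% of the summed FPKM (16.7% to 17.5% in single libraries), and 935 loci held 50% of it. At the threshold itself, Col9a2 lay just inside at 1.001 FPKM and Mdm1 just outside at 0.99995 FPKM. Of the loci, 11537 reached 1 FPKM in each of the 6 libraries, and 12046 loci had a mean of at least 1 without the library of mouse 1.

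**Figure D1:**
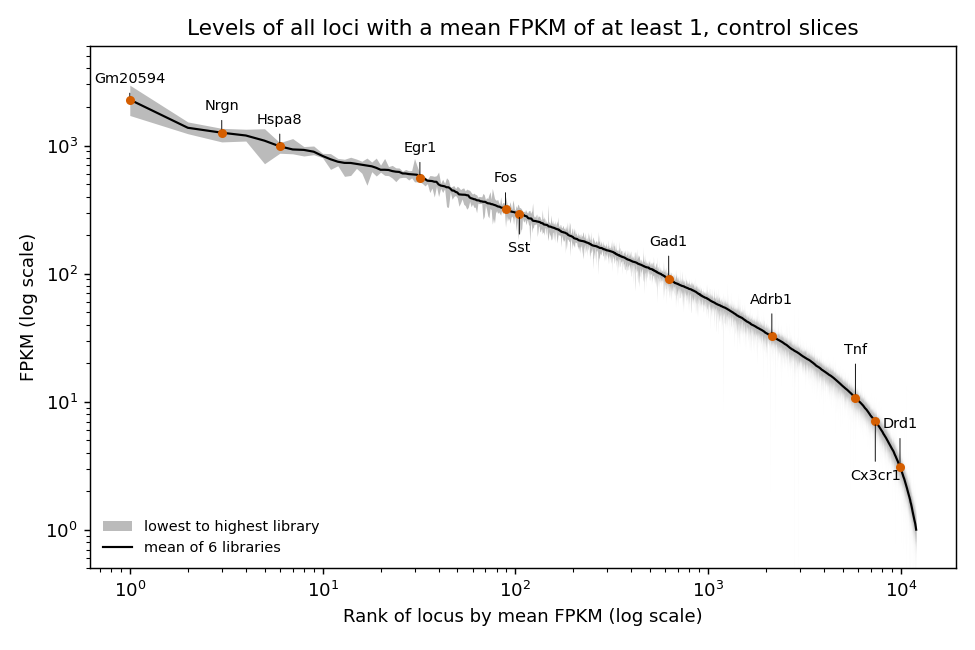
Mean FPKM of the 12019 loci in the 6 control libraries against their rank, both on log scales, with the range over libraries in grey and 11 genes marked. Levels spanned from Gm20594 at 2285 FPKM to the threshold at 1 FPKM, with Egr1 at rank 32, Fos at rank 89 and Drd1 at rank 9905.

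The loci of highest mean after the one at the top were of several kinds. Fth1, the heavy chain of the iron store ferritin, ranked 2nd with 1238 to 1529.9 (median 1353) FPKM over the libraries. Nrgn, the calmodulin-binding protein neurogranin of cortical projection neurons, ranked 3rd at 1068 to 1363 (median 1271), and Mbp, myelin basic protein, ranked 4th at 1085 to 1342 (median 1182). Snap25, a SNARE protein of synaptic vesicle release, ranked 5th at 721 to 1354 (median 1128) FPKM, with its lowest value in the library of mouse 1. The constitutive chaperone gene Hspa8 ranked 6th at 871 to 1054 (median 999). Next came Atp6v0c of the vesicle proton pump (862 to 1134, median 903), the glycolytic gene Aldoa (829 to 982, median 934), the prohormone-processing gene Cpe (849 to 992, median 879) and brain creatine kinase Ckb (804 to 869.8, median 826), whose libraries lay closest together of these.

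Among ranks 11 to 25 were the translation factor gene Eef1a1 at 782 FPKM, the sodium pump subunit gene Atp1b1 at 732 and Calm2, which encodes calmodulin, at 731. They also held Rtn1 (719), the vesicular glutamate transporter Slc17a7 (689), Cst3 (670.1), Tspan7 (647), the respiratory chain gene Cox8a (647), Olfm1 (645), Actb (632), Gnas (625) and the calcium-dependent kinase Camk2a (622 FPKM). The 15 means of these ranks, of which 12 are given, lie so close that the range over libraries of each overlapped that of its neighbours in rank.

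Gm20594, at rank 1 with 1718 to 2963 (median 2209) FPKM, is uncertain as a gene of its own. Its locus on chromosome 6 of mm10 (79818031 to 79818364) resembles the gene of the large mitochondrial ribosomal RNA, mt-Rnr2. Of the 400 windows of 50 bases, the read length, in its GENCODE transcript of 449 bases, 259 matched mt-Rnr2 with at most 6 mismatches, the limit stated for the alignment, and 16 matched without any. The last 120 bases of the locus and the stretch of mt-Rnr2 aligned to them, in the GRCm38 reference, show this, with the 18 bases that differ in capitals:
Gm20594 chr6:79818245-79818364, plus strand: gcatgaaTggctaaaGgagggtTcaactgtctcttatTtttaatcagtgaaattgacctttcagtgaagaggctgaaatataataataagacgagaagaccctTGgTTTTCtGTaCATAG
mt-Rnr2 chrM:2064-2183, plus strand: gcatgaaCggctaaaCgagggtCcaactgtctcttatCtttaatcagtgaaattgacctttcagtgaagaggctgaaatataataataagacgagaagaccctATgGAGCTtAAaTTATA
In the 16 identical windows a read of mt-Rnr2 and a read of this locus cannot be told apart, and the median window differed at 5 bases. The locus was among the more variable of the abundant ones, at a coefficient of variation (CV, the SD over the mean of the 6 libraries) of 22.1%.

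Genes of the basic machinery were high. All 76 genes of cytosolic ribosomal proteins, which build the ribosome's subunits, exceeded 10 FPKM and 63 exceeded 100, with a median of 158 FPKM against 10.2 for all loci. Their median CV was 6.92%, against 10.97% for all loci but 7.77% for loci of like level, at 100 to 1000 FPKM. Rps29 was the highest at 538 to 636 (median 615) FPKM, followed by Rpl41 at 430.3 to 545 (median 486) and Rplp1 at 391 to 481 (median 426). The 76 genes together held 4.10% of the summed FPKM. Of 90 genes of oxidative phosphorylation, the mitochondrial pathway of ATP production, 86 were among the loci, 75 exceeded 10 FPKM and 34 exceeded 100, with a median of 73.9 FPKM. Cox8a, Atp5b (463 to 508, median 494) and Cox6a1 (400.5 to 487, median 445) led them. Cox8c, an isoform gene known from testis, was listed at 0 in every library. Each read was given 1 placement, so levels of ribosomal protein genes, many of which have processed pseudogenes, are uncertain.

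The cell type markers were those of cerebral cortex with its glia and vessels. All 8 markers of excitatory neurons were among the loci, with a median of 79.4 FPKM, as were all 9 of astrocytes (median 51.3), all 9 of oligodendrocytes (median 119), all 7 of their precursors (median 9.87), all 11 of microglia (median 8.21) and all 8 of endothelium (median 8.98). Inhibitory neurons had 11 of 12 markers among the loci (median 17.2), with Ndnf outside at 0.771 FPKM, and mural cells of vessels 5 of 7 (median 1.85). In bulk tissue, fewer cells of a type and less RNA per cell cannot be told apart, so these levels rank transcripts and not cells. The summed level of the oligodendrocyte list, which with that of astrocytes varied most of these, lay between 2294 and 2910 FPKM over the libraries, and that of the excitatory list between 2572 and 2961.

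**Figure D2:**
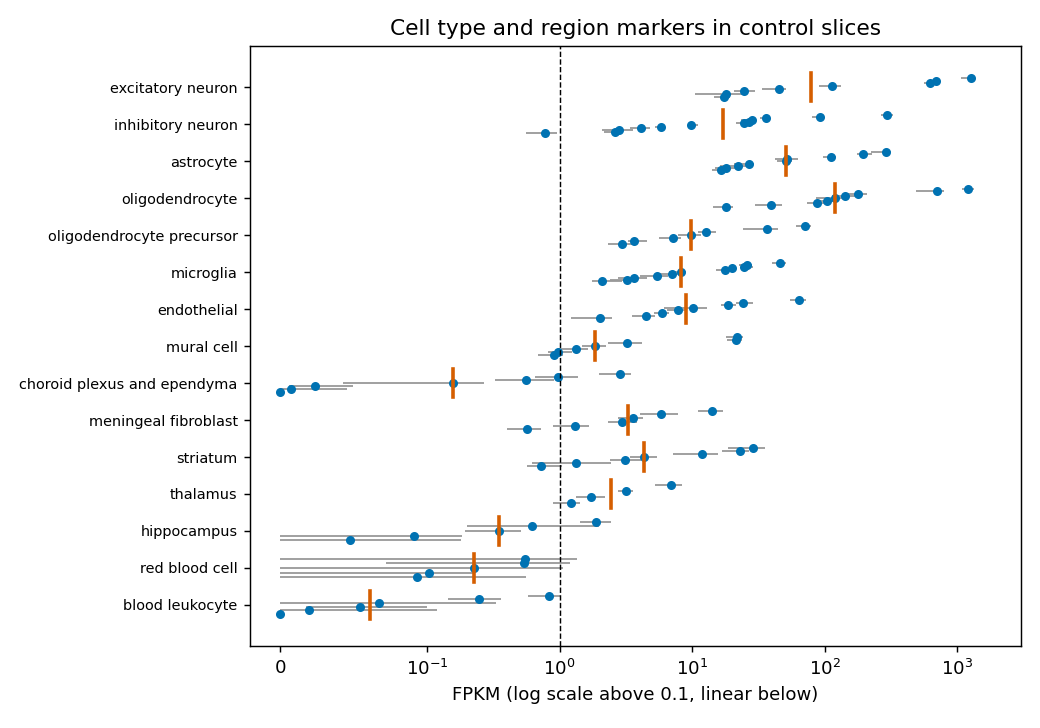
FPKM of the markers of 15 cell types and regions in the control slices, on a scale that is logarithmic above 0.1. Points are means of 6 libraries, grey lines the range over libraries, orange bars the list medians and the dashed line 1 FPKM. The neuronal and glial markers lie to the right of the line except Ndnf, an interneuron gene at 0.771 FPKM, and the choroid plexus, hippocampus, red blood cell and leukocyte lists have medians to the left of it.

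Glutamatergic transcripts outweighed GABAergic ones. Slc17a7, which loads glutamate into the vesicles of cortical neurons, had 625 to 743 (median 692) FPKM, and Gad1, which makes GABA, had 80.3 to 95.8 (median 93.4). Slc17a7 was higher in all 6 libraries, by 2.90 ± 0.149 (SD, n = 6) in log2(FPKM + 1), and the two-sided exact test over libraries, which permutes the signs of the 6 differences (sign-flip permutation), gave p = 0.03125, the smallest that 6 libraries allow. This was 1 of 26 pairs of genes compared in this way, of which 23 passed, all 23 at this p and with a Benjamini-Hochberg value of 0.0353 over the 26. The test asks only whether the order repeats over libraries. An error in the length or mapping of a gene, shared by all libraries, would pass it too. Slc17a6, the transporter of subcortical glutamatergic neurons, was at 5.27 to 8.37 (median 7.07) FPKM, and Slc17a7 exceeded it 99.7-fold in mean. Among other markers of projection neurons, Tbr1 was at 33.7 to 51.4 (median 47.3) and Neurod6 at 10.5 to 25.1 (median 19.3) FPKM. The lowest value of both was that of mouse 1.

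Among interneuron genes the neuropeptide transcript Sst led, at 265 to 327 (median 289) FPKM. The calcium buffer Pvalb, which marks the fast-spiking class, was at 25.8 to 28.3 (median 27.0), and Sst exceeded it 10.9-fold in mean and in all 6 libraries (3.39 ± 0.140 in log2(FPKM + 1), SD, n = 6, exact sign-flip permutation p = 0.03125). Vip, the peptide of a further class, was at 21.5 to 28.1 (median 23.9) FPKM. The difference between Pvalb and Vip was smaller than its spread over libraries and did not pass (0.14 ± 0.163, SD, n = 6, Pvalb higher in 4 of 6 libraries, exact sign-flip permutation p = 0.125). Gad1 exceeded Gad2, the second GABA-synthesizing enzyme, by 1.66 ± 0.053 (SD, n = 6) in log2(FPKM + 1) and in all 6 libraries (exact p = 0.03125). Slc32a1, the vesicular GABA transporter, was at 32.6 to 37.1 (median 36.6) FPKM, and Lhx6 and Adarb2, which mark interneurons of different origin, were at 5.78 and 2.60 FPKM in mean.

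Of the glial genes, Mbp of myelin was the highest, and other myelin transcripts followed, with Mag at 73.6 to 101 (median 86.6), Cnp at 113 to 176 (median 143) and Mog at 30.03 to 47.5 (median 41.3) FPKM. The astrocytic glutamate transporter Slc1a2 was at 224 to 317 (median 301) FPKM, Aldoc at 176 to 228 (median 190.4) and Slc1a3 at 97.7 to 121 (median 113). Gfap, the intermediate filament of astrocytes, was at 42.1 to 62.9 (median 51.3) FPKM and the water channel Aqp4 at 16.3 to 25.5 (median 22.4), and Gfap was higher in all 6 libraries (1.21 ± 0.226 in log2(FPKM + 1), SD, n = 6, exact sign-flip permutation p = 0.03125). Olig1 led the precursor list at 60.5 to 79.4 (median 72.8) FPKM, with Bcas1 at 24.1 to 44.3 (median 37.5) and Pdgfra, the receptor that defines the precursors, at 5.61 to 8.19 (median 7.22).

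The microglial, endothelial and mural lists had lower medians than those of astrocytes and oligodendrocytes. The complement genes C1qb and C1qc, which microglia transcribe in brain, were at 22.5 to 28.2 (median 26.4) and 23.4 to 28.6 (median 23.7) FPKM. The surface receptors Cx3cr1 and P2ry12, known to be high in surveying microglia, were at 5.34 to 7.79 (median 7.24) and 6.70 to 9.04 (median 8.50) FPKM, and their difference was smaller than its spread over libraries and did not pass (-0.20 ± 0.269, SD, n = 6, Cx3cr1 lower in 5 of 6, exact sign-flip permutation p = 0.125). The summed level of the 11 microglial markers lay between 159 and 174.5 FPKM in all 6 libraries. Slc2a1, the glucose transporter of the blood-brain barrier, led the endothelial list at 54.8 to 71.9 (median 62.9) FPKM, with the tight junction gene Cldn5 at 21.3 to 29.0 (median 23.2) and the receptor Flt1 at 6.44 to 9.14 (median 8.17). Cldn5 exceeded Flt1 in all 6 libraries by a mean of 1.502 in log2(FPKM + 1), between 1.14 and 2.01 in single libraries (n = 6, exact p = 0.03125). Rgs5 (18.0 to 24.2, median 22.4) and Vtn (18.4 to 23.8, median 21.5) were the highest mural cell markers.

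The choroid plexus, hippocampus, red blood cell and leukocyte lists had medians below 1 FPKM. Ttr, the defining transcript of choroid plexus, was listed at 0 in 5 libraries and at 0.0455 FPKM in 1, and Otx2 was listed at 0 in all 6. Only Foxj1, of ciliated ependyma, was among the loci from the 7 genes of that list, at 1.98 to 3.44 (median 3.03) FPKM. The hemoglobin genes had means between 0.0932 and 0.552 FPKM, and no member of the red blood cell list of 5 or the blood leukocyte list of 6 reached 1 FPKM in mean. Of the meningeal fibroblast list, 5 of 6 genes were among the loci, led by Igf2 at 11.03 to 17.1 (median 14.0) FPKM. Of the striatal list, 6 of 7 genes were among the loci, among them Ppp1r1b (16.9 to 26.9, median 24.0), which is also transcribed in cortex, while the striatal receptor genes Adora2a and Drd2 were at 0.619 to 2.43 (median 1.22) and 0.572 to 1.04 (median 0.672) FPKM. The 4 thalamic markers lay between 1.22 and 6.91 FPKM in mean, and of the 5 hippocampal markers only Prox1 reached 1 FPKM, at 1.44 to 2.45 (median 1.94). C1ql2, of the dentate gyrus, was at 2.00 FPKM in the library of mouse 3 and at most 0.488 in the others. Transcripts of Y-linked genes were present in all 6 libraries, with Ddx3y at 8.09 to 17.1 (median 16.0) FPKM and Eif2s3y at 13.2 to 19.2 (median 16.8). Ddx3y was lowest in the library of mouse 1.

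All markers of the lists for upper layers, layer 5 and layer 6 were among the loci, as were 3 of 4 for layer 4. The lists did not cover every layer of cortex. Lamp5, of upper layers and of one interneuron class, was at 92.2 to 108 (median 96.9) FPKM, Calb1 at 29.9 to 46.0 (median 40.9), Rasgrf2 at 26.5 to 38.7 (median 33.0) and Cux2 at 18.1 to 22.9 (median 21.7). For layer 4, Rorb was at 6.58 to 10.6 (median 9.31) FPKM and Scnn1a below the threshold at 0.860 in mean. Layer 5 genes included Pcp4 at 109 to 193 (median 171), Etv1 at 23.5 to 29.5 (median 27.7) and Fezf2, a factor of subcerebral projection neurons, at 16.6 to 27.5 (median 21.9) FPKM. In layer 6, Tle4 was at 10.3 to 15.7 (median 14.6), Ctgf at 9.39 to 15.6 (median 12.1) and Foxp2 at 2.49 to 4.37 (median 3.44) FPKM.

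Immediate-early genes were among the abundant transcripts of the control slices. All 24 inducible transcription factors examined were among the loci, each of them above 10 FPKM, 9 of them above 100 FPKM, with a median of 51.5 FPKM against 10.2 for all loci, and together they held 0.885% of the summed FPKM. Egr1, a zinc finger factor, was the highest at 520.0 to 604 (median 551) FPKM and ranked 32nd of all loci. Fos, a subunit of the factor AP-1 on chromosome 12 of mm10 (85473901 to 85477270), was at 230.1 to 401 (median 332) FPKM. Its libraries thus spanned 1.74-fold, with mouse 1 lowest and mouse 6 highest. Jun, its dimer partner, was at 199 to 279 (median 251), Junb at 160.1 to 229 (median 178) and Fosb at 131 to 192 (median 168) FPKM. Egr4 was at 161 to 232 (median 221), Egr3 at 124 to 178 (median 149) and the nuclear receptor gene Nr4a1 at 172 to 223 (median 198) FPKM. Npas4, a factor that in neurons is known to follow calcium entry in particular, was at 131 to 179.9 (median 167) FPKM.

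Within these families the order of levels was stable over libraries for most pairs. Egr1 exceeded Fos in all 6 libraries (0.81 ± 0.332 in log2(FPKM + 1), SD, n = 6), Fos exceeded Fosb (0.94 ± 0.171), Junb was lower than Jun (-0.35 ± 0.133) and Nr4a1 exceeded Npas4 (0.30 ± 0.173), each in 6 of 6 libraries with an exact sign-flip permutation p = 0.03125. The difference between Fos and Arc was smaller than its spread over libraries and did not pass (0.23 ± 0.277, SD, n = 6, Fos higher in 5 of 6 libraries, exact p = 0.09375), and the exception was mouse 1. Without the library of mouse 1 the direction was the same in all remaining libraries for 25 of the 26 pairs.

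The other inducible factors were lower and followed no single pattern over the libraries. Jund was at 59.5 to 99.4 (median 87.2) FPKM and Per1, a clock gene that is also induced by cAMP, at 64.2 to 109 (median 78.1), with its highest value in mouse 1. Nr4a2 was at 43.7 to 58.4 (median 52.5), Ier5 at 47.0 to 54.0 (median 50.2), Ier2 at 33.5 to 55.8 (median 44.9) and Nr4a3 at 31.4 to 47.4 (median 34.0) FPKM. Btg2, an antiproliferative gene, was the most variable of the list at 17.8 to 45.6 (median 31.6) FPKM and a CV of 36.8% (30.3% without mouse 1). Egr2, by contrast, was at 29.2 to 32.4 (median 30.7) FPKM with a CV of 3.80%. Fosl2, Klf6, Maff, Atf3, Csrnp1, Klf4 and Klf2 had means between 11.6 and 30.2 FPKM. Atf3, a stress-responsive factor known from injured neurons, was at 11.6 to 28.3 (median 19.8) FPKM.

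**Figure D3:**
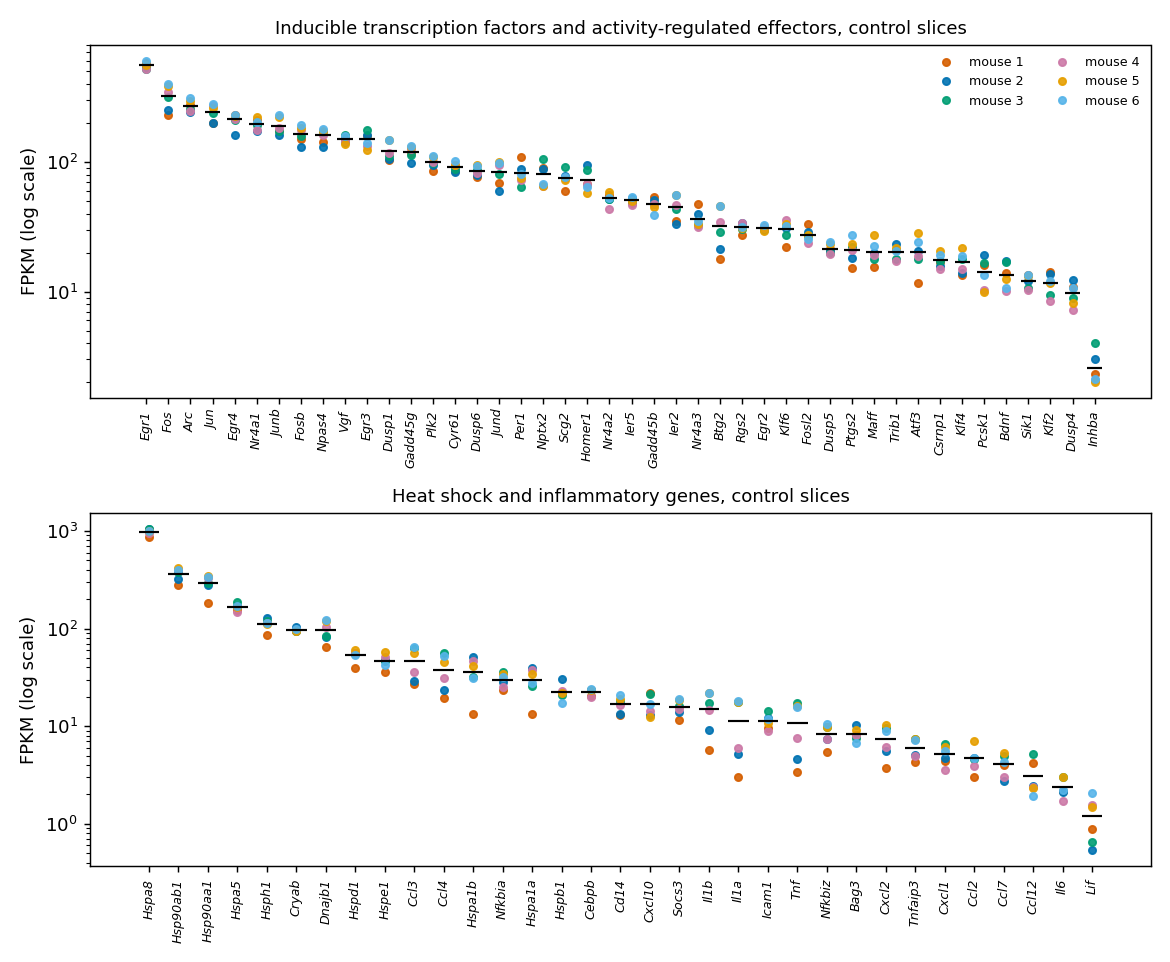
FPKM on log scales of the inducible transcription factors and activity-regulated effectors (top) and of the heat shock and inflammatory genes (bottom) in the 6 control libraries. Each point is 1 mouse and each bar the mean, with genes ordered by mean. Egr1 leads the upper panel at 555 FPKM and Hspa8 the lower one at 986 FPKM, and the points of Il1a and Tnf are spread widest.

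The activity-regulated effectors, proteins that act at synapses or in signalling, were also all present. All 20 were among the loci and 18 exceeded 10 FPKM, with a median of 60.1 FPKM. Arc, a capsid-like protein that drives removal of AMPA receptors, was at 243 to 309 (median 264) FPKM and ranked 117th. Vgf, a secreted neuropeptide precursor, was at 138 to 162 (median 148), the MAP kinase phosphatase gene Dusp1 at 103 to 149 (median 115) and Gadd45g at 98.7 to 133 (median 122) FPKM. Bdnf, the neurotrophin, was at 10.2 to 17.2 (median 13.3) and Ptgs2, which makes prostaglandins, at 15.2 to 27.2 (median 21.5) FPKM. Homer1 (57.2 to 94.0, median 67.1), Nptx2 (64.9 to 105, median 77.5), Pcsk1 (9.96 to 19.2, median 14.8), Bdnf and Inhba (2.01 to 3.98, median 2.22) each had their highest values in mouse 2 or mouse 3 and their lowest in mouse 4 or mouse 5. Dusp4 and Inhba were the members under 10 FPKM.

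The promoters of some of these genes hold motifs of the factors through which calcium and growth factor signals are known to act. Windows of 80 bases from RefSeq promoters in GRCm38.p6 are shown for genes whose levels are given here. Capitals mark a cAMP response element (TGACGTCA) in Dusp1 and Btg2, a CArG box, to which serum response factor binds, in Egr2, a TATA box (TATAAA) in Fos and Tnf, and the core of a heat shock element (GAA and TTC, 2 bases apart) in Hspa1a.
Dusp1 chr17:26508572-26508651, minus strand: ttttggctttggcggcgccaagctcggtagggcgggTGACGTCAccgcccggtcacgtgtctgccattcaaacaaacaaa
Btg2 chr1:134079278-134079357, minus strand: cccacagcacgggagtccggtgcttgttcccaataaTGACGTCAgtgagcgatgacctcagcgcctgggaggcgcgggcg
Egr2 chr10:67537458-67537537, plus strand: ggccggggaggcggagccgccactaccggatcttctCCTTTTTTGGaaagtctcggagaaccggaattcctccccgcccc
Fos chr12:85473821-85473900, plus strand: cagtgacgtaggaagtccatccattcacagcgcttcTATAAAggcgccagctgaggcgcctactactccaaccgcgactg
Tnf chr17:35201993-35202072, minus strand: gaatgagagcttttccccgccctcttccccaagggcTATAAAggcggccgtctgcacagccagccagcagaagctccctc
Hspa1a chr17:34972217-34972296, minus strand: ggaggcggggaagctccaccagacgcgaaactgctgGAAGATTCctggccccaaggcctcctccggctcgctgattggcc
The marked motif begins 143 bases before the start set in the RefSeq promoter of Dusp1, 166 in Btg2, 72 in Egr2, 33 in Fos, 29 in Tnf and 104 in Hspa1a. These starts are not always the first base of the locus whose FPKM is given, which for Egr2 is 67537869 and for Fos 85473901. The promoter windows of RefSeq, which reach to both sides of the promoter start, were searched on both strands, and the motifs were not required to be free of one another. Over all 32851 promoters, 1.79% held the cAMP response element, 1.63% the CArG box, 13.6% the TATA box and 7.86% the heat shock core. Over the 11942 promoters of the loci described here, the shares were 3.04%, 1.29%, 6.86% and 5.61% in the same order. Promoters were matched for 21 of the 24 inducible factors, 14 of the 20 effectors, 9 of the 13 heat shock genes and 15 of the 20 inflammatory genes. The cAMP response element was found in Btg2 and Maff among the factors and in Dusp1, Pcsk1, Plk2 and Scg2 among the effectors. That was 6.45% of the promoters of the factors and 19.0% of those of the effectors. The CArG box was found in Egr2 and Dusp5, the TATA box in 8 of the 15 inflammatory genes, Tnf, Il1a and Il1b included, and the heat shock core in 7 of the 9 heat shock genes. By promoters, the CArG box was in 12.9% for the factors, all of them of Egr2, and 4.76% for the effectors. The TATA box was in 50% of the inflammatory promoters and the heat shock core in 66.7% of the heat shock promoters. Only exact matches in these windows counted, so a gene not named may hold a variant of a motif or a more distant one. A match describes these letters in this window and no binding was measured.

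Heat shock genes were high, and chiefly so for the constitutive chaperones. All 13 were among the loci, with a median of 95.7 FPKM. Hspa8 exceeded Hsp90ab1, the constitutive cytosolic Hsp90 at 279.9 to 413 (median 386) FPKM, in all 6 libraries (1.45 ± 0.192 in log2(FPKM + 1), SD, n = 6, exact sign-flip permutation p = 0.03125). Hsp90aa1, the inducible Hsp90, was at 185 to 349 (median 314) FPKM, Hspa5, the chaperone of the endoplasmic reticulum, at 149 to 186 (median 168), and Hsph1 at 86.0 to 129 (median 114). The stress-inducible genes Hspa1a and Hspa1b were at 13.2 to 39.4 (median 30.8) and 13.5 to 50.7 (median 36.9) FPKM. Both were lowest in mouse 1, where their levels were 13.2 and 13.5 FPKM, and the other 5 libraries lay between 26.1 and 39.4 for Hspa1a and between 31.1 and 50.7 for Hspa1b. Hspa1a was lower than Hspa1b in all 6 libraries (-0.23 ± 0.120, SD, n = 6, exact p = 0.03125). The 80 promoter bases printed for Hspa1a are the same in Hspa1b (chr17:34959299-34959378, minus strand), and the genes are near-identical copies, so the division of reads between them is uncertain. Dnajb1, a co-chaperone, was at 65.5 to 121 (median 93.9) FPKM, the small heat shock genes Cryab and Hspb1 at 93.4 to 105 (median 96.3) and 17.3 to 30.3 (median 21.9), and the mitochondrial Hspd1 at 39.2 to 59.7 (median 55.2).

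Genes of other stress programs ranged from below the threshold, for Trib3, to 497 FPKM in mean, for Mt1. In the integrated stress response, which slows translation, Atf4 was at 91.2 to 137 (median 103) FPKM, Asns at 47.2 to 54.0 (median 51.6), Herpud1 at 38.2 to 48.2 (median 40.6) and Ddit3 (CHOP) at 12.9 to 15.2 (median 13.5), while Trib3, a later target, stayed below the threshold at 0.275 to 0.897 (median 0.509). All 9 hypoxia genes were among the loci, with the glycolytic gene Ldha at 172 to 180.0 (median 174), Bnip3 at 46.3 to 66.8 (median 63.9) and Vegfa at 18.5 to 25.3 (median 22.9) FPKM, while Egln3, Adm and Ankrd37 were at 3.07, 2.19 and 1.86 in mean. The metallothionein genes Mt1 and Mt2, which bind zinc and are induced by glucocorticoids, were at 399.9 to 621 (median 501) and 181 to 347 (median 223) FPKM, and both were highest in mouse 1 and lowest in mouse 4. Heme oxygenase Hmox1 was at 10.8 to 20.3 (median 15.0) and Srxn1 at 33.3 to 42.1 (median 38.1) FPKM, and Nqo1 at 1.09 in mean. Of the p53 targets, Cdkn1a was the highest at 30.7 to 50.6 (median 41.2) FPKM, with 3 libraries between 48.3 and 50.6 and 3 between 30.7 and 34.1, followed by Ccng1 at 14.1 to 23.1 (median 19.9) and Mdm2 at 13.7 to 18.6 (median 16.4).

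Inflammatory genes were present and varied widely between mice. All 20 were among the loci and 11 exceeded 10 FPKM, with a median of 10.98 FPKM, close to that of all loci, but a median CV of 25.3% against 10.97%. The chemokine genes Ccl3 and Ccl4, which draw leukocytes, were the highest at 27.3 to 64.6 (median 46.1) and 19.6 to 56.4 (median 38.3) FPKM. Nfkbia, the feedback inhibitor of NF-kappaB, was at 23.5 to 35.6 (median 30.2), Cebpb at 20.0 to 23.9 (median 23.4), Cd14 at 13.1 to 21.1 (median 17.4) and Cxcl10 at 12.5 to 22.1 (median 15.5) FPKM. Il1b was at 5.68 to 21.7 (median 16.0), Il1a at 3.00 to 18.1 (median 11.8) and Tnf, on chromosome 17 of mm10 (35199367 to 35202007), at 3.37 to 17.1 (median 11.6) FPKM. These 3 cytokine genes were lowest in mouse 1. Tnf stood between 3.37 and 7.57 FPKM in mice 1, 2 and 4 and between 15.7 and 17.1 in mice 3, 5 and 6. Il1a stood between 3.00 and 6.00 in the first of these sets and between 17.5 and 18.1 in the second. Between 128 and 464 reads per library lay behind Tnf, for a CV of 6.21% from counting error against 58.4% measured (46.9% without mouse 1).

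Further chemokine and cytokine transcripts were lower. Ccl2 was at 3.01 to 7.03 (median 4.68), Cxcl1 at 3.55 to 6.62 (median 5.11), Cxcl2 at 3.70 to 10.4 (median 7.49) and Il6 at 1.70 to 2.99 (median 2.196) FPKM, and Lif, at 0.537 to 2.05 (median 1.19), was the lowest of the list. Ccl3 exceeded Ccl4 in all 6 libraries (0.29 ± 0.097 in log2(FPKM + 1), SD, n = 6) and Tnf by 2.13 ± 0.367, each with an exact sign-flip permutation p = 0.03125. The summed level of the 20 genes lay between 191 and 354 FPKM over the libraries, while that of the microglial markers spanned 159 to 174.5 FPKM.

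Covariation over the 6 mice was tested for fixed pairs of these genes, and little of it held under other scalings. Of 15 pairs tested by Pearson's r of log2(FPKM + 1) with an exact two-sided permutation test over all pairings of the libraries, 3 had a Benjamini-Hochberg value under 0.05, and none did by Spearman's rho. Only 1 of these 3, Hspa1a with Hspa1b, kept such a value after median-of-ratios scaling of the libraries or after removal of the trend with GC content. For Tnf with Ccl3 and Ccl3 with Ccl4, which are among these 3, the libraries fell into the separate sets of 3 described above, so no coefficient is given for them. Hspa1a and Hspa1b had r = 0.997 (exact permutation p = 0.00278, Benjamini-Hochberg value 0.0208) and rho = 0.943 (exact permutation p = 0.0167, Benjamini-Hochberg value 0.0833). Without the 2 libraries farthest from the median of Hspa1a, those of mice 1 and 2, r was 0.975. These genes are near-identical copies with an uncertain division of reads, so this r does not show that separate genes varied together. Fos with Npas4 had r = 0.890 (exact permutation p = 0.0236, Benjamini-Hochberg value 0.0885) and rho = 0.886, but 0.532 without mice 1 and 2. Fos with Junb had r = 0.845 (exact permutation p = 0.0528, Benjamini-Hochberg value 0.132) and rho = 0.943. Fos with Egr1 had r = 0.063 and rho = 0.257 (exact permutation p = 0.906 and 0.658), and 0.896 without mice 1 and 2. That relation therefore rests on which libraries are kept. Fos with Arc (r = 0.537, exact p = 0.257), Gfap with Aqp4 (r = 0.518, exact p = 0.303) and Pvalb with Sst (r = -0.332, exact p = 0.508) gave no relation that passed. Without mouse 1, Fos with Arc had r = 0.816 (exact permutation p = 0.0833), so its size depends on this library.

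The receptors through which the slices could respond to transmitter were led by those for glutamate and GABA. All 9 AMPA and kainate subunits were among the loci, with Gria2, the subunit that blocks calcium entry through AMPA receptors, at 65.7 to 111 (median 100.3) FPKM, Grik5 at 70.3 to 81.5 (median 75.6), Gria3 at 43.3 to 67.9 (median 58.1) and Gria1 at 44.4 to 69.3 (median 57.7). Gria2 exceeded Gria1 in all 6 libraries (0.74 ± 0.296 in log2(FPKM + 1), SD, n = 6, exact sign-flip permutation p = 0.03125). The obligatory NMDA subunit Grin1 was at 149 to 177 (median 165) FPKM. Grin2b (11.6 to 16.7, median 15.0) exceeded Grin2a (3.60 to 5.98, median 4.37), the subunit that is known to gain ground as cortex matures, by 1.45 ± 0.133 (SD, n = 6) in all 6 libraries (exact p = 0.03125), while Grin3b stayed below the threshold at 0.157. Grm5 (13.6 to 25.4, median 23.7) and Grm2 (18.8 to 24.8, median 21.0) led the metabotropic receptors, of which 7 of 8 were among the loci and Grm6, the receptor of retinal bipolar cells, was listed at 0 in 5 libraries.

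Bicuculline acts on GABA-A receptors, and 14 of the 16 GABA receptor genes were among the loci, with a median of 29.0 FPKM. The metabotropic subunits Gabbr1 and Gabbr2 were at 143 to 166 (median 157) and 73.2 to 90.9 (median 86.8) FPKM. Of the GABA-A subunits, Gabrb2 was at 23.0 to 39.9 (median 38.7), the extrasynaptic subunit Gabrd at 29.4 to 38.5 (median 33.6) and Gabra2 at 15.8 to 24.6 (median 18.6) FPKM. Gabra6, known from cerebellar granule cells, was listed at 0 in every library.

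For norepinephrine, 6 of 9 receptor genes were among the loci. Adrb1, which raises cAMP, was the highest at 26.1 to 37.5 (median 32.7) FPKM, above the range of each other gene of the list. Adra1d was at 21.9 to 23.9 (median 23.1) FPKM, with the lowest CV of the 24 receptor genes for these 4 transmitters that were among the loci, 3.71%. The inhibitory receptors Adra2c and Adra2a were at 6.17 to 9.001 (median 7.28) and 5.30 to 7.55 (median 6.53), and Adra1b and Adra1a at 6.43 to 7.74 (median 7.11) and 2.79 to 4.601 (median 3.96) FPKM. The ranges of Adra2c, Adra1b and Adra2a overlapped, so their order is not resolved. Adrb3 and Adra2b had means of 0.465 and 0.0237 FPKM.

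For acetylcholine, 7 of 18 receptor genes were among the loci, 4 of them muscarinic, and the highest members were the muscarinic genes Chrm1, Chrm4 and Chrm3. Chrm1, coupled to phospholipase C, was at 34.5 to 39.1 (median 36.9) FPKM, Chrm4 at 20.6 to 29.97 (median 23.0), Chrm3 at 19.3 to 22.5 (median 20.3) and Chrm2 at 2.53 to 3.47 (median 2.99). Chrm1 exceeded Chrm3 in all 6 libraries (0.80 ± 0.103 in log2(FPKM + 1), SD, n = 6, exact sign-flip permutation p = 0.03125). Chrna4 and Chrnb2, which form the main nicotinic receptor of brain, were at 10.1 to 14.3 (median 11.04) and 9.48 to 11.3 (median 9.83) FPKM and Chrna7 at 5.49 to 6.84 (median 5.77). The muscle subunits Chrna1 and Chrnb1 had means of 0.163 and 0.359, and Chrna9, of the inner ear, was listed at 0 in every library.

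No dopamine or serotonin receptor gene reached 10 FPKM in mean. Of 5 dopamine receptor genes only Drd1 (2.41 to 4.09 (median 3.01) FPKM) and Drd5 (0.904 to 2.41, median 1.55), both of the class that raises cAMP, were among the loci. Drd1 exceeded Drd2 in all 6 libraries (1.25 ± 0.170 in log2(FPKM + 1), SD, n = 6, exact sign-flip permutation p = 0.03125), and Drd3 and Drd4 had means of 0.0290 and 0.325 FPKM. The lowest and the highest library of Drd5 were 0.904 and 2.41 FPKM, from 25 to 109 reads. Of 14 serotonin receptor genes 9 were among the loci, none of them at 10 FPKM. Htr2a was the highest at 6.55 to 10.1 (median 8.98) FPKM, then Htr5a at 4.65 to 5.52 (median 5.07) and Htr2c at 3.19 to 6.07 (median 4.75). Htr2a exceeded Htr2c in all 6 libraries (0.80 ± 0.278, SD, n = 6, exact p = 0.03125), while the ranges of Htr5a and Htr2c overlapped. Htr1b, Htr1a, Htr6, Htr3a, Htr7 and Htr5b followed, with means from 3.92 down to 1.59 FPKM.

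**Figure D4:**
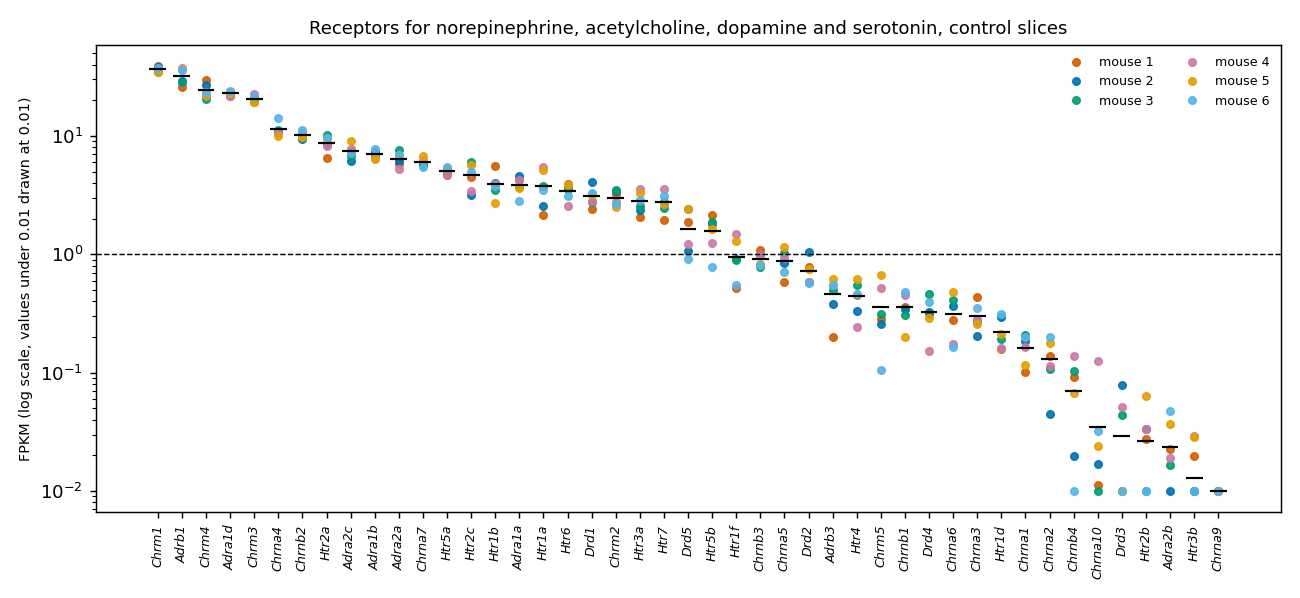
FPKM, on a log scale, of the receptor genes for norepinephrine, acetylcholine, dopamine and serotonin in the 6 control libraries, ordered by mean, with values under 0.01 drawn at 0.01. Points are single mice, bars means and the dashed line 1 FPKM. Chrm1, Adrb1, Chrm4, Adra1d and Chrm3 stand between 20.6 and 36.7 FPKM in mean, and 21 of the 45 genes drawn have a mean below 1 FPKM.

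Ion channels and secreted products completed the neuronal picture. Of 17 sodium, calcium and HCN channel genes 15 were among the loci, with Hcn2 at 49.5 to 57.0 (median 53.4), the sodium channel Scn8a at 41.3 to 53.3 (median 48.9) and the P/Q-type calcium channel Cacna1a at 37.9 to 46.2 (median 42.1) FPKM. Scn1a, Scn2a1 and Scn3a were each lowest in mouse 1. All 14 neuropeptide precursors were among the loci, led by Cck at 316 to 381 (median 345) FPKM, Sst at 265 to 327 (median 289) and Npy at 96.4 to 116 (median 105), while Nts, at 0.416 to 2.57 (median 1.36), was the lowest. Of the matrix genes, Bcan (64.0 to 80.7, median 72.5), Ncan (48.9 to 59.7, median 54.9) and Hapln4 (33.9 to 44.7, median 39.9) were the highest, and Acan, the aggrecan of perineuronal nets, stayed below the threshold at 0.583 to 0.801 (median 0.639). Snhg11 was at 381 to 479.6 (median 451) FPKM and ranked 47th. The other 7 long noncoding RNAs of that list were not among the loci listed in each library, so the ranks leave them out.

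The spread over the 6 mice was small for most loci. The median CV was 10.97%, against 4.62% that counting error alone would give, and 969 loci (8.06%) had a CV at or under their counting error. That count includes Cacna1a (7.77% against 13.3%), whose reads could not be recovered reliably in every library. The median CV was 13.4% at 1 to 10 FPKM, 9.26% at 10 to 100 and 7.77% at 100 to 1000. Without the library of mouse 1 the median CV was 8.19%. Only 203 loci (1.69%) had a CV above 30%. The most even loci at a mean of at least 10 FPKM were Trappc9 (27.3 to 27.8 FPKM, CV 0.698%), Sin3b (0.847%), Alas1 (1.22%), Wbp2 (1.44%), 2310047M10Rik (1.48%), Ubl5 (1.58%), Mcoln1 (1.59%), Ndufb5 (1.65%), Arel1 (1.65%) and Crmp1 (1.70%), each with a CV below its counting error.

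The 10 most variable loci at a mean of at least 10 FPKM were of several kinds. Cers1 and Gdf1, which share a bicistronic locus on chromosome 8, were at 0.0903 to 58.1 (median 15.8) and 1.96 to 59.5 (median 38.3) FPKM, but their sum lay between 53.8 and 67.3 FPKM with a CV of 8.53%. Amd1 and Amd2, on the same span of chromosome 10, were at 0.165 to 54.4 (median 20.4) and 6.16 to 56.3 (median 31.0) FPKM, with a sum between 45.1 and 60.5 and a CV of 9.91%. A read in a shared span cannot be assigned to one model, so single values of these 4 loci are uncertain. There were 24 pairs of loci whose spans overlapped by at least 95%, and the sum had a lower CV than either member in 15 of them. Of the others, Il1a, Tnf, Il1b and Ccl4 are inflammatory genes described above. Fibcd1, an endocytic receptor gene, was at 2.05 to 18.3 (median 12.3) FPKM, with its lowest value in mouse 6. Impact, an imprinted regulator of the translational response, was at 8.59 to 71.1 (median 66.4) FPKM: the library of mouse 2 stood at 8.59 and the other 5 between 46.9 and 71.1.

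**Figure D5:**
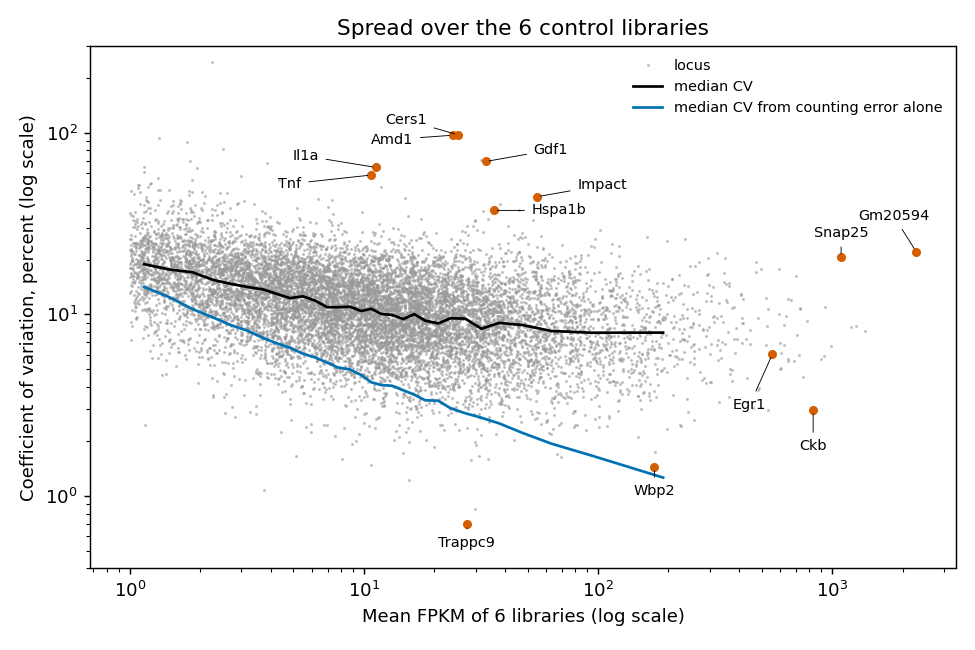
Coefficient of variation over the 6 control libraries against mean FPKM for the 12019 loci, both on log scales, with the running median in black, the median expected from counting error in blue and 13 genes marked. The measured median lies above counting error throughout, at 10.97% against 4.62% over all loci, and Cers1, Amd1, Gdf1, Il1a and Tnf stand far above it.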

How the data were processed

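Poly-A RNA of each dissected auditory cortex was sequenced with single, strand-specific reads of 50 bp. Per the labels and the Methods, the authors took out reads of ribosomal RNA (BWA 0.6.1), placed the others on mm10 with TopHat 1.4.1, at 1 position and with at most 6 mismatches per read, and had Cufflinks 1.3.0 estimate bias-corrected FPKM on UCSC RefSeq models, relative to all fragments of protein coding genes. The deposited FPKM values and their intervals were used as they are. A table of the authors' own comparison of cocktail with control (mean counts, fold changes, p-values) was not used.

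Loci were joined by name and position, and the mean, SD and CV were taken over the 6 control libraries. An interval was taken as 2 Poisson SDs, which gives the reads behind each value. Whole numbers, to within 0.05, made up 82.8% of the 18264 values under 20 reads. These reads number 10601067 to 19768881 per library and give the counting CV, which covers counting error only. The recovery fails at some loci of high FPKM, such as Rtn1 (0 to 19914 reads over the libraries), Gria1 (16 to 9705) and Cacna1a (34 to 7925). Reads and counting CV of such loci are unreliable, and the totals and the count of loci at or under counting error are approximate. Of the 12019 loci, 82 had a status other than OK in at least 1 library, and 11595 (96.5%) had a GC content from GENCODE M21 transcripts.

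Within-library differences of log2(FPKM + 1), with a pseudocount of 1, were tested for 26 pairs of genes by exact sign-flip permutation (two-sided), and 15 pairs for covariation by exact permutation, with Benjamini-Hochberg values within each family. Some genes, and 3 of the 26 pairs, enter the counts, medians and adjusted values but are not reported here singly. No test was run across loci and none against the cocktail. The tests were tested on simulated data. Python 3.11.15, numpy 2.4.6, pandas 2.3.3 and scipy 1.17.1 were used. The loci, lists and pairs were chosen with earlier results of these data known. Named, apart from these genes not reported, are the 25 highest loci, the 10 most and 10 least variable at a mean of at least 10 FPKM, the genes of the pairs, the 3 highest of each list and members on which a list turns, some of the last chosen after their values were seen. Other scalings, thresholds, pseudocounts, reads in place of FPKM, and the omission of each library were tried.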

Additional observations from a re-analysis of the deposited data

Results flagged for a closer look

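Among 224 of the loci named in the report, 21 had 1 library far from the other 5 by the size of its gap relative to the whole range. C1ql2, at 0.623 FPKM in mean, is not among the 21, though mouse 3 stood at 2.00 FPKM and the others at most at 0.488. Chance flags about 1 in 20, or 11.2 loci, and 14 of the 21 lie in the library of mouse 1.

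In mouse 1, Atp6v0c of the vesicle proton pump stood at 1134 FPKM against 862 to 929 in the other libraries, and the respiratory chain gene Cox8a at 794 against 586 to 663. The same library was low for the sodium pump subunit Atp1b1, at 575 FPKM against 739 to 782, and for Gnas, at 523 against 617 to 670.4. It was also low for the enzymes that make GABA, with Gad1 at 80.3 FPKM against 91.0 to 95.8 and Gad2 at 23.3 against 28.7 to 29.9. Of transmitter genes, the transporter Slc1a2 stood at 224 FPKM against 284 to 317, the receptor subunit Gabrb2 at 22.95 against 37.8 to 39.9 and the glutamate receptor Grm5 at 13.6 against 22.1 to 25.4. The sodium channels Scn2a1 and Scn3a stood at 19.5 FPKM against 32.8 to 39.8 and at 1.96 against 3.43 to 4.07. The layer 5 marker Pcp4 was at 109 FPKM against 168 to 193, the mitochondrial chaperone Hspd1 at 39.2 against 53.9 to 59.7, and the Y-linked Ddx3y at 8.09 against 15.3 to 17.1.

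In mouse 2, the vesicular GABA transporter Slc32a1 stood at 32.6 FPKM against 35.5 to 37.1, the microglial receptor Cx3cr1 at 5.34 against 7.10 to 7.79, and the inducible factor Egr4 at 161 against 210.0 to 232. In mouse 5, the astrocytic gene Aldoc stood at 228 FPKM against 176 to 195, and the upper layer marker Cux2 at 18.1 against 21.6 to 22.9. In mouse 6, the nicotinic subunit Chrna4 stood at 14.3 FPKM against 10.1 to 11.3, and the complement gene C1qc at 28.6 against 23.4 to 24.1.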

How the results depend on the processing

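The number of loci, 12019, stayed within 1.5-fold under every alternative tried: 13026 at a mean of at least 0.5 FPKM, 8507 at 5 FPKM, 13628 after scaling to TPM, an equal sum in every library, and 12009 to 12046 with single libraries left out. The share of the 100 highest loci, 16.9%, was 16.9% to 17.0% with single libraries left out. In reads in place of FPKM, the same 100 loci held 11.6%, and the 100 loci highest in reads held 15.2%. The median CV of 10.97% was 9.12% over loci at a mean of at least 10 FPKM, 9.17% after removal of the trend with GC content, an alternative added after the data were seen, and 8.19% to 11.5% with single libraries left out, the lowest being that without mouse 1. Of the 26 pairs compared within libraries 23 passed, and 23 did with no replicate block, that is without pairing the values of 1 library. There Pvalb with Vip and Cx3cr1 with P2ry12 passed and Ccl3 with Ccl4 and Hspa1a with Hspa1b did not. With single libraries left out, 23 to 25 pairs kept one direction in all libraries. In reads not divided by length, 5 of the pairs reported singly reversed: Pvalb with Vip (-0.18), Cx3cr1 with P2ry12 (1.14), Cldn5 with Flt1 (-0.97), Fos with Arc (-0.35) and Nr4a1 with Npas4 (-0.34, all log2), and 2 others, Fos with Fosb and Gria2 with Gria1, no longer passed. The recovered reads of Gria1 ranged from 16 to 9705, so the change for Gria2 with Gria1 is uncertain. The 3 covariations with a Benjamini-Hochberg value under 0.05 came down to 1, that of the near-identical copies Hspa1a and Hspa1b, after median-of-ratios scaling and 1 after removal of the GC trend. The cause was not tested. Of the 42 lists, 21 had a median above that of all loci, and 20 to 21 did with single libraries left out. Scaling moved the median locus of a library by up to 0.14 (log2). Levels near 1 FPKM rest on few reads, and control and cocktail libraries were not tested against each other.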

Other observations

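The other hemisphere of each mouse, incubated in the cocktail, gives a second library in which the most variable control values can be looked up. Impact, an imprinted gene, stood at 8.59 FPKM in the control and 8.56 FPKM in the cocktail hemisphere of mouse 2, against 46.9 to 71.1 in the control and 65.6 to 75.05 in the cocktail hemispheres of the other 5 mice. Nnat, also imprinted, was at 24.8 and 25.5 FPKM in the hemispheres of mouse 2, against 29.6 to 57.5 and 33.1 to 57.9 in the others. Impact and Nnat were picked after their values were seen.

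Fibcd1 differed between hemispheres of the same mouse. It was at 2.05 FPKM in the control and 13.6 in the cocktail hemisphere of mouse 6, and at 8.81 and 3.02 in those of mouse 2. The control value of Hspa1b that stood apart, 13.5 FPKM in mouse 1, was 26.4 in the other hemisphere, where the other 5 mice were at 38.0 to 59.5.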
